A study of Mus musculus with 15 samples.

Results

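Mpo, Elane, Prtn3, Ctsg, Ms4a3 and Ctsc are genes of the primary (azurophil) granule of early myeloid cells, or of its assembly. They were listed by name, each was read from its probe set with 1 gene symbol (the brightest where a gene had several), and 6 of 6 were measured among 14860 genes. Sca1+ mononuclear spleen cells, sorted with antibody-coupled microbeads, were measured with 1 Affymetrix Mouse Exon 1.0 ST array per mouse in 2 transgenic models of myelodysplastic syndrome (MDS) and their founders. Values are log2 expression. The 15 arrays form 5 groups of 3, all on the FVB/N background.

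AML post MDS mice (3622, 3626 and 3518) carry both MRP8NRASD12 and MRP8hBCL2. HR-MDS mice (8111, 8019 and 8398), the model of high-risk MDS, carry MRP8NRASD12 with tethBCL2. The founders carry 1 transgene system each: MRP8NRASD12 (8157, 8158 and 8159), MRP8hBCL2 (3012, 3386 and 3391) and tethBCL2 (7758, 7465 and 7466). NRASD12 is mutant NRAS and hBCL2 is human BCL2, an inhibitor of apoptosis. The MRP8 promoter is active in myeloid cells, whereas in tethBCL2 mice a tetracycline transactivator under the MMTV long terminal repeat drives BCL2. The crosses that gave both models used hemizygous MRP8NRASD12 mice. By the methods the AML post MDS mice were younger than the HR-MDS mice when spleen cells were taken. The ages of founder mice were not stated. The labels give every array the disease state AML, founders included. No normal FVB/N array was analysed here.

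Primary granules are the first granules that form as a neutrophil or monocyte precursor matures, at the promyelocyte stage, and their genes are switched off again before the cell leaves the marrow. Mpo encodes myeloperoxidase, which makes hypochlorous acid. Elane, Prtn3 and Ctsg encode the serine proteases neutrophil elastase, proteinase 3 and cathepsin G. Ctsc encodes cathepsin C, the dipeptidyl peptidase that removes the propeptide from these proteases and from granzymes, and it is used by many cell types. Ms4a3 encodes a membrane protein of granulocyte and monocyte progenitors. Secondary granule genes (such as Ltf and Camp) come on later, at the myelocyte stage, and tertiary granule and late genes (such as Mmp9 and Cxcr2) later still.

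The sequence before each start site is shown because 5 of the genes moved together and their transcription factors were measured on the same arrays. The motif GAGGAA, the core that the factor PU.1 (gene Spi1) binds, was in 6 of 6 windows of 250 bases before to 50 bases after the start, on 1 strand or the other, against 28.3% of the 32851 windows in the RefSeq table. The stretches below hold a match of every gene, 5′ to 3′ on the gene's strand, in the RefSeq reference (GRCm38.p6, a C57BL/6J genome, while these mice are FVB/N). Capitals mark GAGGAA or its reverse complement TTCCTC, and the motifs CAACGG and TATAAG.
Mpo (chr11:87793534-87793623, plus strand): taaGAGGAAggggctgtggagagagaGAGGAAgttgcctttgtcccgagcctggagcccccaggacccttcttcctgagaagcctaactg
Elane (chr10:79886192-79886311, plus strand): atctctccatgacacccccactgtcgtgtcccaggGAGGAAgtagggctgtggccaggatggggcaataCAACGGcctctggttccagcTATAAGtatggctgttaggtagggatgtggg
Prtn3 (chr10:79879547-79879666, plus strand): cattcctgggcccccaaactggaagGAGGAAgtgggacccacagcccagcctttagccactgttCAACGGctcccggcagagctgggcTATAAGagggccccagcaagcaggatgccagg
Ctsg (chr14:56102765-56102824, minus strand): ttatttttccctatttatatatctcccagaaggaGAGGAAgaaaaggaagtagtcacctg
Ms4a3 (chr19:11640802-11640831, minus strand): tccactggacttgctGAGGAAttgcacaaa
Ctsc (chr7:88277865-88277964, plus strand): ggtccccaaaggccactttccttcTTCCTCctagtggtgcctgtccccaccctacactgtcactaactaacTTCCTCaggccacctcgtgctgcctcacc

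Elane and Prtn3 are neighbours on chromosome 10, with no annotated protein-coding gene between them. Their stretches hold the same 3 motifs in the same order. Counted back from the start, GAGGAA began at base -85 in Elane and -95 in Prtn3. The motif CAACGG began at -51 in Elane and -56 in Prtn3. The motif TATAAG began at -31 in Elane and -32 in Prtn3. CAACGG is a form of the site of MYB. In Ms4a3 the GAGGAA match lay after the start, at base 36. The longer GAGGAAGT was in 4 of 6 windows (Mpo, Elane, Prtn3 and, on the opposite strand, Ctsc), against 3.20% of all windows. The motif CAACGG was in 2 of 6 windows, against 5.12% of all. The motif TATAAG was in the same 2, against 7.43% of all. These last 3 motifs were searched after the sequences had been read. Of the others searched on both strands, TAACNG was in 2 windows (Mpo and, on the opposite strand, Elane, against 23.3% of all). The motif TTGCNNAA was in 1 (Ms4a3, against 10.8%), overlapping no GAGGAA. The motif TGTGGT was in 1 (Ctsg, opposite strand, against 16.8%), as was TATAAA (Ctsg, opposite strand, against 13.6%). GAGGAAGT contains GAGGAA. A match is a description of letters and not a binding site.

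Across genotypes, Mpo, Elane, Prtn3, Ctsg and Ms4a3 ran in nearly the same pattern. They were lowest in tethBCL2 mice, higher in HR-MDS mice and highest on average in AML post MDS mice. Ctsc hardly varied. Over the 15 arrays the range was 5.27 to 6.73 on the log2 scale for those 5 genes and 1.34 for Ctsc. In these bulk cells, fewer myeloid cells and less RNA per cell cannot be told apart.

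**Figure D1:**
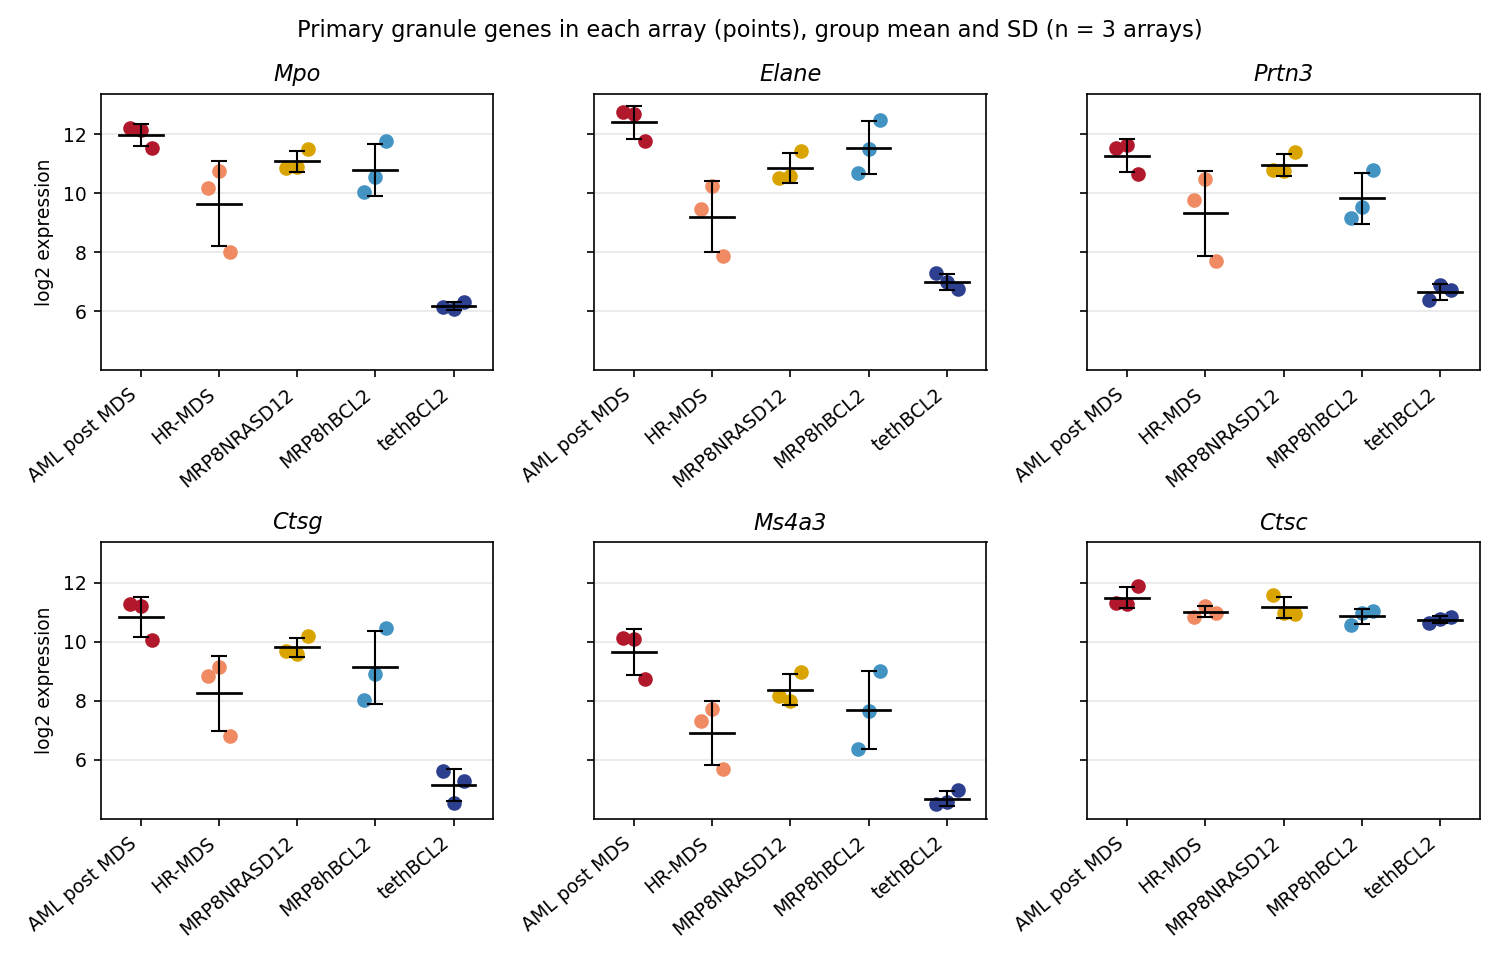
Log2 expression of the 6 genes (vertical axis) in each array, by group (horizontal axis, n = 3 arrays each). Points are arrays, the wide line is the group mean and the bar its SD. The tethBCL2 arrays lie lowest for every gene but Ctsc, whose groups lie between 10.56 and 11.91.

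Mpo was at 12.21, 12.16 and 11.54 in AML post MDS mice, 10.20, 10.76 and 8.02 in HR-MDS mice, 10.87, 10.91 and 11.50 in MRP8NRASD12 mice, 10.05, 10.54 and 11.76 in MRP8hBCL2 mice, and 6.15, 6.07 and 6.33 in tethBCL2 mice. The AML post MDS arrays were all above the MRP8NRASD12 arrays, and the HR-MDS arrays all above the tethBCL2 arrays. MRP8NRASD12 and MRP8hBCL2 arrays overlapped, as did MRP8hBCL2 and HR-MDS arrays. The mean was 11.97 ± 0.38 in AML post MDS, 9.66 ± 1.45 in HR-MDS, 11.09 ± 0.35 in MRP8NRASD12, 10.79 ± 0.88 in MRP8hBCL2 and 6.18 ± 0.13 in tethBCL2 mice (SD, n = 3 each).

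Elane was at 12.76, 12.69 and 11.78 in AML post MDS mice, 9.48, 10.26 and 7.89 in HR-MDS mice, 10.51, 10.60 and 11.44 in MRP8NRASD12 mice, 10.70, 11.49 and 12.48 in MRP8hBCL2 mice, and 7.29, 6.99 and 6.75 in tethBCL2 mice. It was the only one of the 6 genes with a higher mean in MRP8hBCL2 (11.56 ± 0.89) than in MRP8NRASD12 mice (10.85 ± 0.51), although those arrays overlapped. HR-MDS arrays lay below all MRP8NRASD12 arrays and above all tethBCL2 arrays.

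Prtn3, which lies next to Elane, was at 11.55, 11.65 and 10.66 in AML post MDS mice, 9.78, 10.48 and 7.72 in HR-MDS mice, 10.78, 10.74 and 11.41 in MRP8NRASD12 mice, 9.16, 9.54 and 10.81 in MRP8hBCL2 mice, and 6.38, 6.91 and 6.71 in tethBCL2 mice. Among neighbours in the order of the means, only HR-MDS and tethBCL2 arrays did not overlap.

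Ctsg was at 11.28, 11.21 and 10.08 in AML post MDS mice, 8.84, 9.16 and 6.81 in HR-MDS mice, 9.68, 9.58 and 10.20 in MRP8NRASD12 mice, 8.03, 8.93 and 10.47 in MRP8hBCL2 mice, and 5.63, 4.56 and 5.28 in tethBCL2 mice. Ms4a3 was at 10.15, 10.09 and 8.76 in AML post MDS mice, 7.32, 7.72 and 5.69 in HR-MDS mice, 8.16, 8.002 and 8.98 in MRP8NRASD12 mice, 6.38, 7.65 and 9.01 in MRP8hBCL2 mice, and 4.51, 4.57 and 4.99 in tethBCL2 mice. For both genes the means ran in the order AML post MDS, MRP8NRASD12, MRP8hBCL2, HR-MDS and tethBCL2. Only the last step of that order had no overlap between neighbouring groups.

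Ctsc was at 11.31, 11.28 and 11.91 in AML post MDS mice, 10.86, 11.22 and 10.995 in HR-MDS mice, 11.58, 10.99 and 10.94 in MRP8NRASD12 mice, 10.56, 10.98 and 11.06 in MRP8hBCL2 mice, and 10.64, 10.77 and 10.86 in tethBCL2 mice. Every pair of neighbours in its order overlapped. The tethBCL2 arrays, which were lowest for the peroxidase and the proteases, held Ctsc at 10.75 ± 0.11, and the AML post MDS mean was 11.50 ± 0.36.

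Single mice moved the 5 genes together. AML post MDS 3518 was the lowest of its group, and HR-MDS 8398 the lowest of its group, for all 5. MRP8hBCL2 3391 was the highest of its group for all 6. In AML post MDS 3518, however, Ctsc was the highest of all 15 arrays. That array also had the highest median of 13 monocyte and macrophage markers in its group (9.57, against 9.22 and 9.29) and the highest Csf1r, the receptor of macrophage colony stimulating factor, of all arrays (11.11). Whether this bears on Ctsc was not tested.

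NRAS alone was compared with tethBCL2 alone to set the founders of the HR-MDS model against each other. Mpo was 4.91 higher in MRP8NRASD12 mice (standard error 0.56, limma adjusted p = 0.000731), which is 30.1-fold. Ctsg was 4.66 higher (standard error 0.64, adjusted p = 0.00150, limma), Prtn3 4.31, Elane 3.84 and Ms4a3 3.69, with adjusted p of 0.00149 to 0.00405. Thus 5 of 6 genes rose in a comparison in which 8.83% of all genes passed (5.98% higher). Ctsc differed by 0.42 (95% interval -0.02 to 0.86, adjusted p = 0.237, limma). The median difference was 4.07 over the 6 genes and 0.05 over all genes. With any 1 array of the groups compared left out, these 5 genes passed. For 6 of 6 genes all MRP8NRASD12 arrays lay above all tethBCL2 arrays, as for 15.3% of all genes. The median of 2 Y-linked genes was 4.01 to 4.28 in MRP8NRASD12 and 9.24 to 9.46 in tethBCL2 arrays, so genotype and sex cannot be told apart. In an exact permutation test the two-sided p was 0.1 for each of the 6, the smallest that 3 arrays against 3 allow.

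MRP8-driven BCL2 was compared with tet-driven BCL2, since the BCL2 founder is what separates the models. These founders are separate lines, of unstated age and with mouse numbers in separate series. Promoter, line, age and number series therefore cannot be told apart. Mpo was 4.60 higher in MRP8hBCL2 mice (standard error 0.56, adjusted p = 7.01e-05, limma) and Elane 4.55 higher (standard error 0.54, adjusted p = 5.73e-05, limma), which is 24.3-fold and 23.4-fold. Ctsg was 3.99 higher, Prtn3 3.17 and Ms4a3 2.99. Again 5 of 6 genes rose, where 22.6% of all genes passed (13.5% higher), and they also did with any 1 array of the groups compared left out. For these 5 genes all MRP8hBCL2 arrays lay above all tethBCL2 arrays, as for 24% of all genes. Ctsc differed by 0.11 (95% interval -0.32 to 0.55, adjusted p = 0.774, limma). Mpo and Elane had the 5th and 6th largest increase of all 14860 genes.

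Between the 2 founders that carry an MRP8 transgene, MRP8NRASD12 and MRP8hBCL2, 0 of 6 genes passed, although 22.1% of all genes did. The differences were -0.71 for Elane (95% interval -1.87 to 0.46), 1.14 for Prtn3 (-0.11 to 2.39), 0.70 for Ms4a3, 0.67 for Ctsg and 0.31 for both Mpo and Ctsc. At an unadjusted p under 0.05 the count was also 0 of 6, where 33.7% of all genes passed, the lowest p being 0.0697 for Prtn3. The interval reached -1.87 for Elane and 2.39 for Prtn3, so the founders were not shown to be alike. The median of 2 Y-linked genes was 4.01 to 4.28 in MRP8NRASD12 arrays and 8.84 to 9.13 in MRP8hBCL2 arrays, so genotype and sex cannot be told apart here. Nor can genotype be told apart from age, which was not stated, or from the separate series of mouse numbers.

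Adding NRAS to tet-driven BCL2 gives HR-MDS mice. All HR-MDS arrays were above all tethBCL2 arrays for 6 of 6 genes, a pattern that 16.6% of all genes showed, though for Ctsc both the lowest HR-MDS array and the highest tethBCL2 array round to 10.86. Mpo was 3.47 higher (standard error 0.56, adjusted p = 0.0203, limma, 11.1-fold) and passed, while Ctsg at 3.11 (adjusted p = 0.0538), Prtn3 at 2.66 (0.0680), Elane at 2.20 (0.103) and Ms4a3 at 2.22 (0.150) did not. Ctsc differed by 0.27 (95% interval -0.17 to 0.71). So 1 of 6 genes passed, where 0.451% of all genes did (0.424% higher). Without HR-MDS 8398, 5 of 6 passed, and without any other 1 array of the groups compared, 0 of 6 passed. The share of all genes passing in those fits is not given here.

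Adding tet-driven BCL2 to NRAS gives the same mice seen from the other founder. The HR-MDS arrays were below all MRP8NRASD12 arrays for 5 of 6 genes, where 3.87% of all genes were lower without overlap. The differences were -1.65 for Prtn3, -1.64 for Elane, -1.55 for Ctsg, -1.47 for Ms4a3 and -1.43 for Mpo, with adjusted p of 0.790 to 0.803 (limma). Hence 0 of 6 genes passed, where 0.0135% of all genes did, and at an unadjusted p under 0.05 those 5 passed, where 6.1% of all genes did. Ctsc differed by -0.15 (95% interval -0.59 to 0.29). The 2 Y-linked genes had a median of 8.93 to 9.31 in HR-MDS arrays, so genotype and sex cannot be told apart here either. On average, HR-MDS lay 57.3% (Elane) to 70.8% (Mpo) of the way up the log2 scale between tethBCL2 and MRP8NRASD12. No gene lay outside the range of its founders' means.

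In the AML post MDS model, by contrast, the mean of every one of the 6 genes lay above the means of both founders. Adding NRAS to MRP8-driven BCL2 went with a difference of 1.99 for Ms4a3 (95% interval 0.64 to 3.33, adjusted p = 0.119, limma), 1.71 for Ctsg (0.34 to 3.08, adjusted p = 0.190), 1.45 for Prtn3, 1.19 for Mpo, 0.85 for Elane and 0.63 for Ctsc. None of the 6 passed, where 1.93% of all genes did, and at an unadjusted p under 0.05 Ms4a3, Ctsc, Ctsg and Prtn3 did, as did 15.8% of all genes. Only Ctsc had no overlap, with all AML post MDS arrays above all MRP8hBCL2 arrays, as 11% of all genes had. Without MRP8hBCL2 3391, Ctsg at 2.38 and Ms4a3 at 2.65 passed. The Y-linked median was 3.86 in AML post MDS 3518 and 8.84 to 9.13 in MRP8hBCL2 arrays, so sex was not balanced.

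Compared with MRP8NRASD12 mice, AML post MDS mice differed by 1.56 for Elane (95% interval 0.40 to 2.73, adjusted p = 0.0539, limma), 1.28 for Ms4a3, 1.04 for Ctsg, 0.88 for Mpo, 0.33 for Ctsc and 0.31 for Prtn3. Of the 6, 0 passed, where 22.4% of all genes did, and at an unadjusted p under 0.05 Elane alone did, where 33.7% of all genes did. All AML post MDS arrays were above all MRP8NRASD12 arrays for Elane and Mpo, as for 16.9% of all genes. Elane passed without MRP8NRASD12 8159 or without AML post MDS 3518. The median of 2 Y-linked genes was 8.84, 8.42 and 3.86 in AML post MDS 3622, 3626 and 3518. In MRP8NRASD12 arrays it was 4.01 to 4.28, so sex was not balanced. The founders' age was not stated and the series of mouse numbers differed. Genotype, age and number series therefore cannot be told apart.

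AML post MDS and HR-MDS mice share the NRAS transgene and differ in the promoter of BCL2. Elane was 3.20 higher in AML post MDS mice (standard error 0.54, adjusted p = 0.000738, limma, 9.19-fold), the 8th largest increase of all genes. Ms4a3 was 2.76 higher (standard error 0.62, adjusted p = 0.00531, limma), Ctsg 2.59, Mpo 2.31 and Prtn3 1.96 (adjusted p = 0.0241). In this comparison 5 of 6 genes rose, where 24.2% of all genes passed (14.3% higher). All AML post MDS arrays were above all HR-MDS arrays for 6 of 6 genes, as for 21.6% of all genes. Ctsc differed by 0.48 (95% interval 0.04 to 0.91, adjusted p = 0.112, limma, unadjusted p = 0.0353). Prtn3 no longer passed without HR-MDS 8398, AML post MDS 3622 or AML post MDS 3626, nor with only the arrays compared in the fit. The ages differed too, and so did the series of mouse numbers. The Y-linked median was 3.86 in AML post MDS 3518 and 8.93 to 9.31 in HR-MDS arrays. Promoter, BCL2 line, age and number series cannot be told apart, and sex was not balanced.

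**Figure D2:**
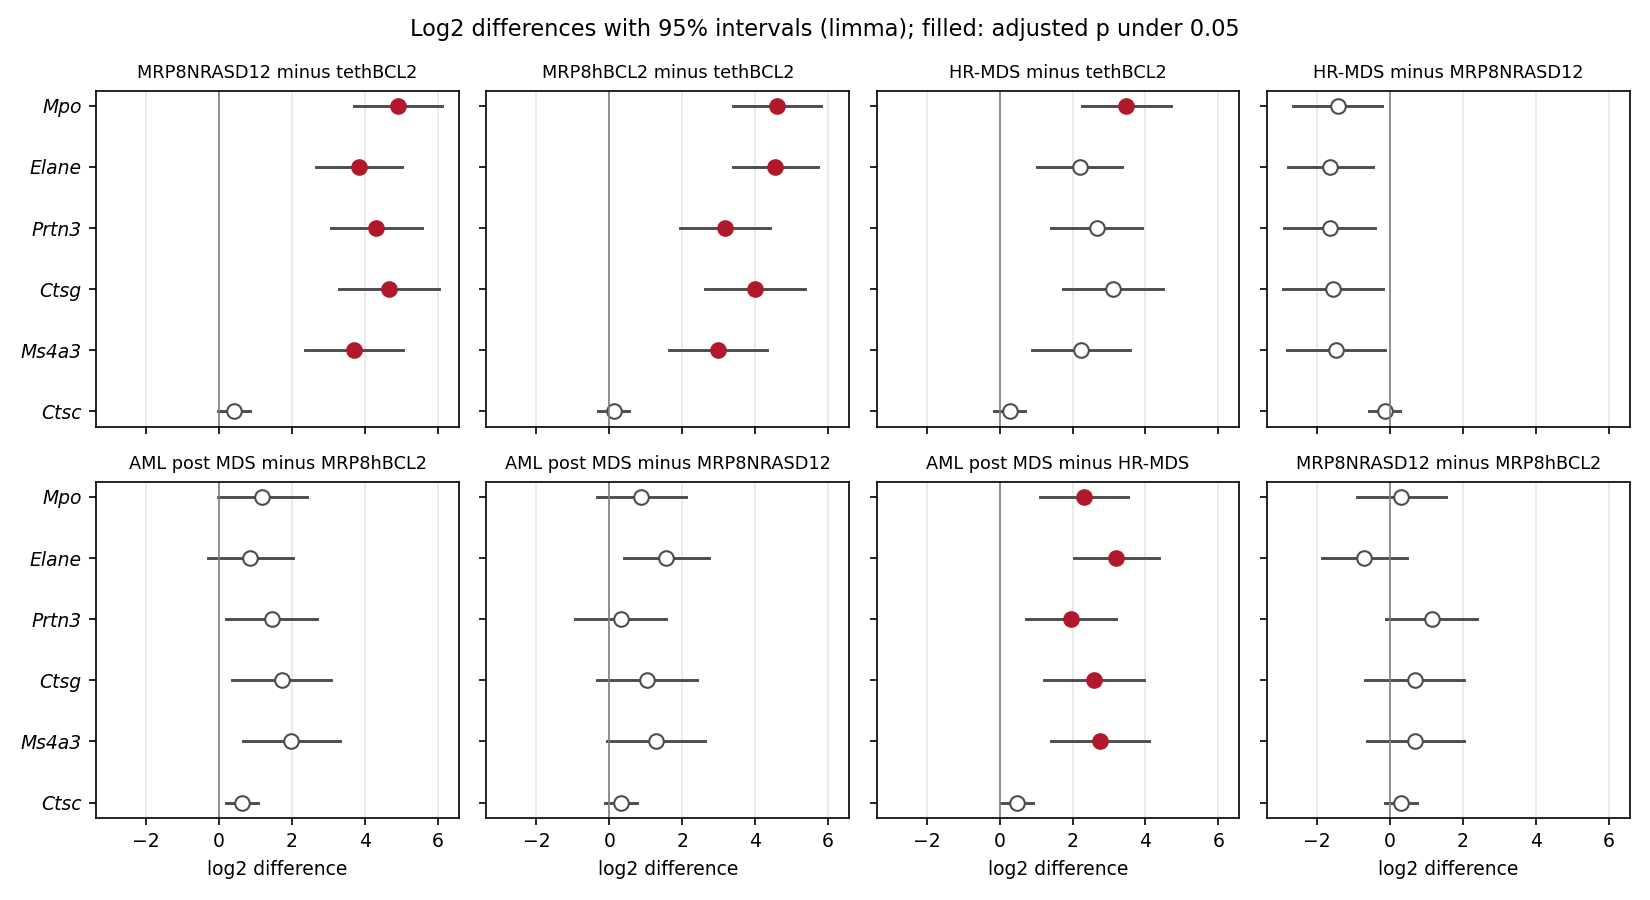
Log2 difference (horizontal axis) of each of the 6 genes in the 8 comparisons, the first-named group minus the second, with its 95% interval from limma. Filled points passed at an adjusted p under 0.05: 5 of 6 genes in MRP8NRASD12 minus tethBCL2, in MRP8hBCL2 minus tethBCL2 and in AML post MDS minus HR-MDS, and Mpo alone in HR-MDS minus tethBCL2.

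The change on adding NRAS to MRP8hBCL2 mice was then set against the change on adding it to tethBCL2 mice, in 1 contrast. The difference of the changes was -2.29 for Mpo (standard error 0.80, adjusted p = 0.945, limma, unadjusted p = 0.0129), -1.40 for Ctsg, -1.35 for Elane, -1.21 for Prtn3, -0.24 for Ms4a3 and 0.36 for Ctsc. For 0 of 6 genes did the changes differ past the threshold, where 0% of all genes passed (684 genes, or 4.6%, at an unadjusted p under 0.05).

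Primary granule genes and later granule genes differed by like amounts in some comparisons and not in others. On comparing AML post MDS with MRP8hBCL2 mice, the median difference was 1.32 for the 6 primary granule genes, 1.304 for 9 secondary granule genes and 1.36 for 9 tertiary granule and late neutrophil genes. In HR-MDS compared with MRP8NRASD12 mice these medians were -1.51, -1.50 and -1.40 for the primary, secondary and tertiary lists. The 3 medians lay farther apart in the other comparisons between groups. The median of the 6 genes minus the median of the tertiary and late genes, taken within each array, was 1.65, 1.65 and 1.88 in AML post MDS mice, and -0.21, -0.43 and -0.16 in HR-MDS mice. It was 0.29, 0.19 and -0.56 in MRP8NRASD12 mice, 2.57, 3.18 and 3.75 in MRP8hBCL2 mice, and 0.43, 0.78 and 0.60 in tethBCL2 mice. Thus all 6 arrays with MRP8-driven BCL2 lay above all 9 others, and MRP8hBCL2 arrays above AML post MDS arrays. Those 6 also share a BCL2 line and a series of mouse numbers. This gap is a description, since it rests on levels of different probes, and only its differences between arrays can be read.

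The gap to 9 secondary granule genes was 0.62, 0.53 and 0.94 in AML post MDS mice, -1.48, -1.20 and -0.29 in HR-MDS mice, -0.23, -1.26 and -1.44 in MRP8NRASD12 mice, 0.00, 0.96 and 1.13 in MRP8hBCL2 mice, and -0.37, 0.62 and 0.02 in tethBCL2 mice. AML post MDS arrays were above all HR-MDS and MRP8NRASD12 arrays, and tethBCL2 arrays overlapped with every other group. Without Ctsc the gap of the other 5 genes to the secondary granule genes ran at 0.50 to 0.75 in AML post MDS and -0.48 to 0.20 in tethBCL2 arrays, which then did not overlap.

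**Figure D3:**
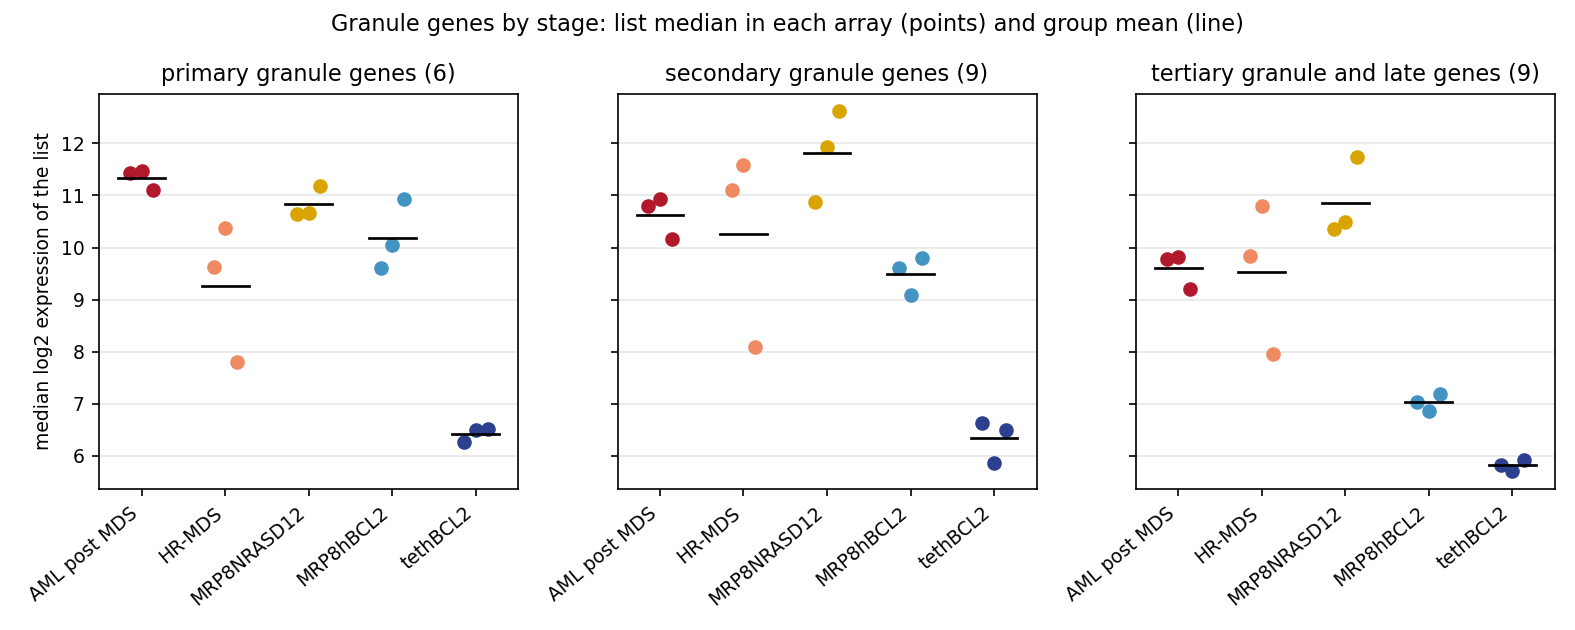
Median log2 expression (vertical axis) of the 6 primary granule genes, 9 secondary granule genes and 9 tertiary granule and late genes in each array (points), by group with the group mean (line). In MRP8hBCL2 mice the primary median averaged 10.19 and the tertiary median 7.03, against 6.43 and 5.82 in tethBCL2 mice.

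Single genes of the lists were then counted. The share of all genes passing was 1.93% in AML post MDS compared with MRP8hBCL2 mice. It was 22.6% in MRP8hBCL2 compared with tethBCL2 mice and 22.1% in MRP8NRASD12 compared with MRP8hBCL2 mice. Of 9 tertiary and late genes, 2 rose in AML post MDS compared with MRP8hBCL2 mice, Retnlg by 3.71 and Mmp9 by 2.95, and 0 of 9 secondary granule genes passed. In MRP8hBCL2 compared with tethBCL2 mice, 4 of 9 tertiary and late genes rose (median difference 0.84) and 6 of 9 secondary granule genes (median 3.31), against a median of 3.58 for the 6 primary granule genes. S100a8 rose by 5.13, S100a9 by 4.97, Retnlg by 2.14 and Csf3r by 1.67, whereas Mmp9 (gelatinase B) differed by 0.50 and Cxcr2, a chemokine receptor of mature neutrophils, by 0.43. S100a8 is the mouse gene whose human counterpart gives the MRP8 promoter its name. In MRP8NRASD12 compared with MRP8hBCL2 mice, 8 of 9 tertiary and late genes rose (median 2.47), Mmp9 by 4.86, Slfn4 by 4.78, Retnlg by 4.67 and Cxcr2 by 3.43, and 6 of 9 secondary granule genes rose (median 2.002). None of the primary granule genes passed there (median 0.49).

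In AML post MDS compared with HR-MDS mice, where 5 of 6 primary granule genes rose (median 2.45), 0 of 9 secondary granule genes and 0 of 9 tertiary and late genes passed (medians 0.18 and 0.36, limma). At an unadjusted p under 0.05, which 34.7% of all genes passed, only Hp of both lists did, with a difference of 1.44, and Csf3r had the smallest p of the late list, with 0.87. Compared with MRP8NRASD12 mice, AML post MDS mice had 3 of 9 tertiary and late genes lower, with differences of -1.94 for Padi4, -1.93 for Cxcr2 and -1.91 for Mmp9, and the list median was -1.05, against 0.96 for the primary granule genes. In that comparison 22.4% of all genes passed. In HR-MDS compared with tethBCL2 mice, 8 of 9 secondary and 6 of 9 tertiary and late genes rose (medians 3.99 and 3.56), against a median of 2.44 for the primary granule genes. There 0.451% of all genes passed.

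Other proteins of primary granules were listed too, and 5 of them were measured. Bpi, whose human counterpart is a bactericidal protein of these granules, stayed between 4.77 and 5.17 in all 15 arrays. In tethBCL2 arrays, where they were lowest, Ctsg lay at 4.56 to 5.63 and Ms4a3 at 4.51 to 4.99. Whether Bpi was detected at such a level was not tested. Of the 5 other proteins measured, 2 rose in AML post MDS compared with HR-MDS mice, Arsb by 1.58 and Srgn by 0.83. There 24.2% of all genes passed. Srgn encodes serglycin, the proteoglycan core on which granule proteases are packed, and Arsb a lysosomal sulfatase. Srgn averaged 12.88 ± 0.12 in AML post MDS, 12.05 ± 0.15 in HR-MDS, 11.98 ± 0.11 in MRP8NRASD12, 12.82 ± 0.04 in MRP8hBCL2 and 12.09 ± 0.13 in tethBCL2 mice (SD, n = 3), and so was high in both groups with MRP8-driven BCL2. None of the 5 passed in HR-MDS compared with tethBCL2 mice.

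Transcription factors of granulocyte precursors were measured too. Spi1 (PU.1) averaged 11.23 ± 0.09 in AML post MDS, 9.33 ± 0.39 in HR-MDS, 10.09 ± 0.40 in MRP8NRASD12, 10.65 ± 0.31 in MRP8hBCL2 and 8.94 ± 0.08 in tethBCL2 mice (SD, n = 3). Cebpe, which drives the passage to secondary granules, averaged 8.45 ± 0.56 in AML post MDS, 6.58 ± 0.52 in HR-MDS, 7.34 ± 0.94 in MRP8NRASD12, 7.24 ± 0.58 in MRP8hBCL2 and 5.12 ± 0.56 in tethBCL2 mice. In AML post MDS compared with HR-MDS mice, 6 of 13 factors rose and 1 fell, Spi1 by 1.91 (adjusted p = 3.59e-05, limma), Cebpe by 1.87 and Myb by 0.87, while Sox4 changed by -0.86. There 24.2% of all genes passed.

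In MRP8hBCL2 compared with tethBCL2 mice 7 of 13 factors rose, Cebpe by 2.12, Spi1 by 1.72, Myb by 1.15 and Erg by 1.02. In MRP8NRASD12 compared with tethBCL2 mice 5 of 13 rose, Cebpe by 2.22, Erg by 2.18, Spi1 by 1.15 and Myb by 0.94. In HR-MDS compared with tethBCL2 mice only Erg, an ETS factor of stem cells, did (1.90, adjusted p = 0.0203, limma), and Spi1 differed by 0.39. The shares of all genes passing in these comparisons, in order, were 22.6%, 8.83% and 0.451%. Gfi1, a repressor in granulocyte precursors, passed in none of the 8 comparisons, with differences of -0.30 to 0.30.

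**Figure D4:**
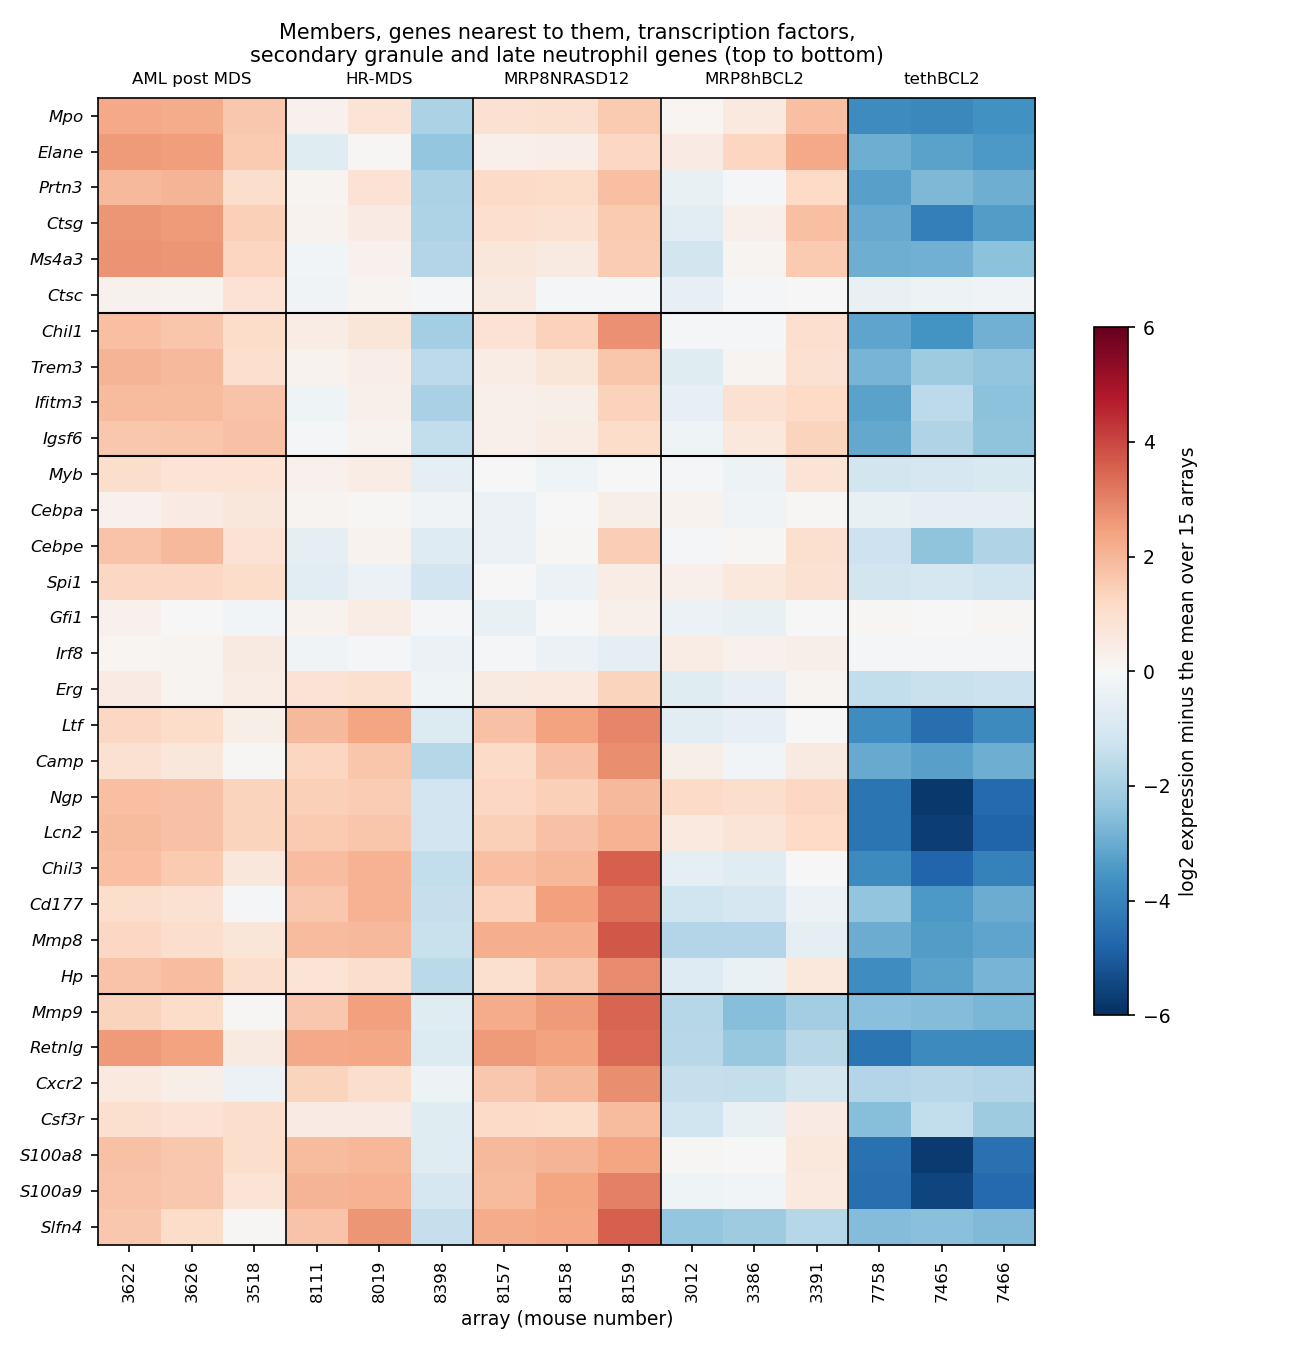
Log2 expression minus each gene's mean over the 15 arrays (colour), for genes in rows and arrays in columns by group. From the top, blocks hold the 6 genes and 4 of the genes nearest to them in pattern. Below are genes picked from the lists of transcription factors, secondary granule genes and late neutrophil genes. The factors Cebpb, Runx1, Cbfb, Klf4, Sox4 and Gata2 and the late genes Padi4 and Il1b are not drawn. Nor is the secondary granule gene Cybb, which stayed between 11.72 and 12.61. In MRP8hBCL2 arrays the late genes Mmp9, Cxcr2 and Slfn4 lie near their tethBCL2 level. The late genes S100a8, S100a9, Retnlg and Csf3r lie above theirs there, as do Mpo and Elane.

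The genes nearest in pattern were found by the mean absolute difference over the 15 arrays after centring each gene on its own mean. Among the 6, Mpo and Ctsg were closest to each other (0.25), followed by Ctsg and Ms4a3 (0.31). Elane and Prtn3, neighbours on the chromosome, were the farthest apart of the 5 (0.71). Ctsc was 1.29 to 1.62 away from each of them. Outside the 6, Chil1 was nearest to Mpo (0.45) and to Prtn3 (0.27), Trem3 to Ctsg (0.48) and to Ms4a3 (0.33), and Ifitm3 to Elane (0.54). Hence Prtn3 was nearer to Chil1, a chitinase-like protein gene, than to any other of the 6 genes.

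Also among the 3 nearest were Hp (haptoglobin) for Prtn3, at 0.38, Igsf6 and Far2 for Elane, at 0.575 and 0.632, and Dstn (destrin) for Ms4a3, at 0.42. For Ctsc the nearest were Apobec1 (0.12), Slc16a10 (0.12) and Anxa4 (0.13). Small distances go with small ranges, and Ctsc's range was 1.34. All arrays share the sort and the platform, so these distances are a description over 15 arrays.

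Cell division genes and markers of other cells were counted in the same comparisons. The share of all genes passing was 24.2% in AML post MDS compared with HR-MDS mice and 1.93% compared with MRP8hBCL2 mice. Compared with tethBCL2 mice it was 22.6% in MRP8hBCL2, 8.83% in MRP8NRASD12 and 0.451% in HR-MDS mice. For MRP8NRASD12 compared with MRP8hBCL2 mice it was 22.1%. A count near its share is no result about the list. Of 10 cell division genes, 6 rose in AML post MDS compared with HR-MDS mice (median difference 1.17), 9 in AML post MDS compared with MRP8hBCL2 mice (1.57), 10 in MRP8NRASD12 compared with tethBCL2 mice (2.09), 5 in MRP8hBCL2 compared with tethBCL2 mice (1.37) and 6 in HR-MDS compared with tethBCL2 mice (1.75). The range of their median was 9.76 to 10.20 in AML post MDS, 8.17 to 9.01 in HR-MDS, 8.68 to 9.23 in MRP8NRASD12, 7.68 to 9.30 in MRP8hBCL2 and 6.58 to 6.92 in tethBCL2 arrays. The array with 9.30 was MRP8hBCL2 3391, which was also highest of its group for the 6 granule genes. The same array had the highest plasma cell (10.29), erythroid (7.59), monocyte and macrophage (8.92) and stem and early progenitor (7.44) medians of its group. Its B cell (11.38) and T cell (10.72) medians were the lowest there. AML post MDS 3518, lowest of its group for the granule genes other than Ctsc, was at 9.87 for cell division genes and not lowest.

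Of 13 monocyte and macrophage markers, 4 rose and 1 fell in AML post MDS compared with HR-MDS mice, 10 rose in MRP8NRASD12 compared with tethBCL2 mice, and 4 rose and 1 fell in MRP8hBCL2 compared with tethBCL2 mice. Their median ran at 9.22 to 9.57 in AML post MDS, 8.56 to 9.01 in HR-MDS, 9.09 to 9.57 in MRP8NRASD12, 7.29 to 8.92 in MRP8hBCL2 and 7.38 to 8.01 in tethBCL2 arrays. The median of 9 B cell markers was 11.10 to 11.31 in AML post MDS, 11.61 to 11.88 in HR-MDS, 11.11 to 12.11 in MRP8NRASD12, 11.38 to 11.69 in MRP8hBCL2 and 11.91 to 12.04 in tethBCL2 arrays, and 3 of 9 fell in AML post MDS compared with HR-MDS mice. Of 8 T cell markers, 4 rose and 2 fell in AML post MDS compared with HR-MDS mice, 7 fell in MRP8NRASD12 compared with MRP8hBCL2 mice and 5 rose in MRP8hBCL2 compared with tethBCL2 mice.

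The T cell median was 10.20 to 10.43 in AML post MDS, 9.60 to 9.80 in HR-MDS, 9.02 to 9.72 in MRP8NRASD12, 10.72 to 10.91 in MRP8hBCL2 and 9.65 to 9.98 in tethBCL2 arrays. Of 7 NK and cytotoxic markers, 3 rose in AML post MDS compared with HR-MDS mice, Gzmb among them, 5 fell in MRP8NRASD12 compared with MRP8hBCL2 mice, and 3 rose in MRP8hBCL2 compared with tethBCL2 mice. Ncr1, a marker of NK cells, lay between 3.63 and 4.70 in all arrays, with its highest mean in MRP8hBCL2 mice (4.56). Gzma lay at 4.38 to 5.07. The others of this list were Klrd1 at 6.30 to 8.88, Nkg7 at 9.52 to 11.49 and Prf1 at 7.34 to 8.80. Eomes lay at 6.58 to 8.14 and Gzmb at 5.43 to 9.66. Of 10 stem and early progenitor markers, 3 rose in AML post MDS compared with HR-MDS mice, 2 in HR-MDS, 5 in MRP8NRASD12 and 5 in MRP8hBCL2 mice, each of these compared with tethBCL2 mice. What part these cells had in the granule gene differences was not tested. Ly6a, the gene of the sorting marker Sca1, was not analysed here.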

How the data were processed

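Sca1+ spleen cells of 15 mice were measured, 1 array each. The authors deposited log2 values for each probe set, computed in EASANA from FAST DB annotations (genome build mm9 in the submitters' processing notes). How probes were summarized, and how arrays were scaled, was not given in the sources used here, and array medians ran at 6.55 to 6.88. No column was left out. MRP8NRASD12 8157 had a mean correlation with its group of 0.947, against 0.964 and 0.967 for the others of its group and 0.977 to 0.988 elsewhere. HR-MDS 8398 stood apart by its granule genes.

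Of 23332 probe sets, 14996 had 1 symbol, 1019 several and 7317 none, and 14941 matched RefSeq genes by Entrez number. The brightest probe set of each gene was kept (135 genes had several), with no filter. limma 3.58.1 in R 4.3.3 fitted a mean for each of 5 groups over all 15 arrays. Tests were two-sided, with Benjamini-Hochberg adjustment over all 14860 genes and a threshold of 0.05. Exact permutation tests were run on single genes. The steps were tested on simulated data. Python 3.11.15 and matplotlib 3.10.9 drew figures.

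The members and gene lists were chosen with earlier results of these data known, so lists were counted and not tested. From each list, up to 4 passing genes with the largest difference were to be named, or up to 2 with the smallest p where none passed. For patterns, the 3 nearest genes were named. Bpi, Gfi1, Csf1r, Ncr1, and other list genes given beside those were named after their values were seen. Promoter windows came from the RefSeq table of GRCm38.p6. Protein identity was planned but not run, as no protein table was used here. The number of arrays limits the precision, mice are the replicates, and p-values measure only the spread between them.

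Alternatives were quantile normalization, subtracted array medians, the lowest 0.25 of genes left out, only the arrays compared, variance trend and robust moderation, all probe sets in place of genes, array weights, averaging of probe sets that share a gene, the methods' t-test, each array left out in turn and, chosen after the data were seen, the model without MRP8NRASD12 8157 and HR-MDS 8398.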

Additional observations from a re-analysis of the deposited data

How the results depend on the processing

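No difference of the 6 genes changed sign where it passed, under any alternative run. Members passing in HR-MDS compared with tethBCL2 mice (1 of 6) depended most on the setting: 2 with array medians subtracted, 3 with the lowest 0.25 of genes left out, 5 with array weights, 0 with all probe sets, 0 with only the arrays compared, 0 by the methods' t-test adjusted and 5 unadjusted, 4 without MRP8NRASD12 8157 and HR-MDS 8398 (chosen after seeing the data), and 0 to 5 with each array left out in turn. In AML post MDS compared with MRP8hBCL2 mice (0 of 6), array weights gave 1 and leaving out each array 0 to 2. In AML post MDS compared with MRP8NRASD12 mice (0 of 6), subtracted medians, the lowest 0.25 left out, array weights, only the arrays compared, and the model without both arrays that stand apart gave 1 each, the methods' t-test unadjusted gave 2, and leaving out each array 0 to 1. In AML post MDS compared with HR-MDS mice (5 of 6), the methods' t-test gave 0 adjusted and 3 unadjusted, and leaving out each array 4 to 5. Prtn3 was also lost there with only the arrays compared and without both arrays that stand apart. In MRP8NRASD12 compared with tethBCL2 mice (5 of 6) the methods' t-test gave 3 adjusted, and in MRP8hBCL2 compared with tethBCL2 mice (5 of 6) it gave 4, losing Ms4a3 (adjusted p = 0.0814). It was not run for the difference between the changes on adding NRAS. The causes were not tested. For each alternative, arrays left out included, the share of all genes passing is not given here. These counts therefore cannot be read against it. No paired analysis was possible because mouse numbers are unique to each group.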

Other observations

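Of the relatives and neighbours of the 6 genes, Mcpt8, Gzmb and Epx rose in AML post MDS compared with MRP8hBCL2 and HR-MDS mice. Mcpt8, a basophil protease gene next to Ctsg on chromosome 14, averaged 7.91 ± 0.62 in AML post MDS, 5.85 ± 0.96 in HR-MDS, 6.58 ± 0.50 in MRP8NRASD12, 5.67 ± 0.39 in MRP8hBCL2 and 4.91 ± 0.26 in tethBCL2 mice (SD, n = 3 each). It was 2.25 higher in AML post MDS than in MRP8hBCL2 mice (limma adjusted p = 0.0234), where none of the 6 genes passed. Gzmb, the granzyme B gene, rose by 2.11 in the same comparison and by 2.66 compared with HR-MDS mice. Epx, the eosinophil peroxidase gene, rose by 1.64 and 1.79 in those comparisons. Lpo, the peroxidase gene next to Mpo, stayed between 5.16 and 5.62 in all 15 arrays, and Ms4a2, next to Ms4a3, differed by 0.26 at most. Ms4a2 lay at 3.43 to 3.99, and whether Lpo or Ms4a2 was detected was not tested. Ms4a6d, the next gene beyond Ms4a2, ranged over 4.29 to 9.97 in the arrays and was higher in AML post MDS than in HR-MDS mice by 2.96 (adjusted p = 0.00159, limma). Ms4a6d was also 2.003 higher in AML post MDS than in MRP8hBCL2 mice, without passing (adjusted p = 0.0817, limma). In the same spleens the median of 11 basophil, mast cell and eosinophil markers ran at 6.83 to 7.64 in AML post MDS arrays. It ran at 5.34 to 6.06 in MRP8hBCL2 and 5.49 to 6.18 in HR-MDS arrays. Of these 11 markers, 3 rose and 1 fell in AML post MDS compared with HR-MDS mice, where 24.2% of all genes passed. The marker that fell was Ccr3, with a mean of 7.55 against 9.45. Compared with MRP8hBCL2 mice, 3 rose and 0 fell, where 1.93% of all genes passed. What part these cells had in the differences was not tested.

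Among 5 inhibitors of granule proteases, Slpi, which inhibits elastase and cathepsin G, was higher in HR-MDS than in tethBCL2 mice (3.68, adjusted p = 0.0203, limma), where Mpo alone of the 6 genes passed, and in MRP8NRASD12 compared with tethBCL2 mice (4.22). Compared with HR-MDS mice, AML post MDS mice had Serpinb6b higher by 1.23 and Cst3, cystatin C, by 0.92, Serpinb6a at -1.15, and Slpi at -0.28 (adjusted p = 0.797). Of the other cathepsins measured, Ctsd rose by 0.97 in HR-MDS compared with tethBCL2 mice, where Ctsc did not pass, and Ctss changed by -1.005 in AML post MDS compared with HR-MDS mice.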
